A study of Mus musculus with 13 samples.

Results

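CA3 pyramidal neurons are the excitatory neurons of the hippocampal field between the dentate gyrus and CA1. They receive the mossy fibres of dentate granule cells, excite each other through recurrent collaterals and send the Schaffer collaterals to CA1. Kainate receptors, glutamate-gated channels that include the GluK4 subunit encoded by Grik4, are a known feature of their mossy fibre synapses.

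Here 162 nuclei were taken as CA3 pyramidal out of 105427 retained nuclei, which is 0.154%. They were selected on measured counts of unique molecular identifiers (UMIs), 1 per captured RNA molecule. A member had at least 4 UMIs in sum over Iyd, Npy2r, Bok, Coch and Cdh24 with at least 2 of these genes detected, and at least 2 UMIs of Grik4. It had fewer than 2 UMIs of Gad1 and Gad2 together, no UMI of Drd2 or Calb2, and fewer than 2 UMIs of Prox1. Those last conditions kept out inhibitory neurons, hilar mossy cells and dentate granule cells. All levels of the genes in these conditions, and of any gene in members against other nuclei, are given as descriptions with no test.

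The study sequenced nuclei of whole frozen hippocampus from 13 female mice of the C3B6F1 hybrid strain (C3HB6F1 in the sample labels), with 1 library per sample and each sample taken as 1 mouse, which the labels do not say outright. Young mice were 5 months old and fed ad libitum (n = 3). Old mice were 24 months old and were either fed ad libitum (n = 3), on acute dietary restriction started at 20 months (n = 3), or on long-term dietary restriction started at 5 months (n = 4). Nuclei were stained with Hoechst and sorted before droplet capture, with no marker for a neuron class. Libraries held 38546292 to 80538090 UMIs.

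The libraries did not contribute alike. The 4 libraries numbered 1, one per group, held 104 of the 162 members (64.2%) and 29.4% of the retained nuclei. In them 29.98% of retained nuclei had at least 10000 UMIs, against 16.3% in the other libraries. Old ad libitum mouse 1 stood apart with a median of 11375 UMIs per retained nucleus, against 3801 to 8814 in the other 12 libraries. A total of 1351 barcode sequences occurred in more than 1 library and covered 2712 nuclei. The barcodes of 2 members recurred in another library, and no 2 members shared one.

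Members were deep nuclei. Their median was 16933.5 UMIs (7223 to 55197) and 4450.5 genes, against a median of 6274 UMIs in all retained nuclei and 9046 UMIs in excitatory nuclei. By mouse the median of members ran from 12232 to 21769 UMIs except in old ad libitum mouse 1, where it was 31705. Mitochondrial UMIs were at most 0.0254% of any member's total. Scrublet scores placed 15 members (9.26%) among the highest-scoring nuclei of their libraries, which were 7.01% of all retained nuclei. Of these 15, 7 were among the 33 members of acutely restricted mouse 1, where 649 of 9007 retained nuclei were so placed.

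The genes of the rule chose the members, so their detection is a description and no check of the label. Cdh24, a cadherin, was detected in 132 members with 283 UMIs in total. Npy2r, the neuropeptide Y receptor Y2, was detected in 100 members with 183 UMIs, and Bok, a BCL2-family protein, in 97 members with 151 UMIs. Iyd, the iodotyrosine deiodinase, was detected in 80 members with 136 UMIs. Coch, which encodes cochlin, was nearly absent, with 12 UMIs in 10 members (6.17%) and at most 3 UMIs in any of them, against 2.14% of inhibitory nuclei at a median of 9853 UMIs. Grik4 had a median of 21 UMIs per member (2 to 78), and 143 members held at least 10. Thus 81 members passed on 2 of the 5 genes, 68 on 3, 12 on 4 and 1 on all 5, and 74 members had neither Iyd nor Coch.

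Levels are given as CPM, the UMIs of a gene scaled to a fixed total of UMIs. Grik4 stood at 1175 CPM over the summed members. It was 166 CPM in 12884 CA1-like nuclei, 389 in 20142 dentate granule-like nuclei, 565 in 137 hilar mossy-like nuclei and 107 in 3879 inhibitory nuclei, the comparison classes set by their own markers. Iyd reached 44.8 CPM in members and at most 2.84 CPM in those classes. Cdh24 was 93.2 CPM against at most 9.15, Npy2r 60.3 against at most 17.5, and Bok 49.7 CPM against at most 17 CPM, in mossy-like nuclei. Coch was 3.95 CPM in members, 1.37 in CA1-like and 2.09 in inhibitory nuclei. By mouse, Grik4 in the 9 mice with at least 5 members was 793 and 1125 CPM (young mice 1 and 3) and 1136 and 1203 CPM (mice 1 and 2 of the old ad libitum group). It was 1118, 1247 and 1251 CPM in the acutely restricted mice and 1295 and 1361 CPM in long-term restricted mice 1 and 2. Grik4 spans chromosome 9 from 42518135 to 42944493 on the minus strand of GRCm38 (GENCODE M21), and Iyd spans chromosome 10 from 3540240 to 3554877 on the plus strand.

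Of 8 CA3 identity genes that the rule did not use, Nectin3, Socs2, Homer3, Dkk3 and Nrip3 were highest in members, Cpne4 and Rnf182 in mossy-like and Elavl2 in inhibitory nuclei. Nectin3, an adhesion molecule of CA3 dendrites, was 446 CPM in members, 149 in mossy-like nuclei and 24.3 to 26.0 in the other classes. Cpne4, a copine, was 868 CPM in members and 1168 in mossy-like nuclei, against 107 in CA1-like nuclei. Rnf182, a ubiquitin ligase, was 355.5 CPM in members and 440.5 in mossy-like nuclei, against 20.2 to 86.0 elsewhere. Socs2, a suppressor of cytokine signalling, was 150 CPM and 127.5 CPM in the same pair of classes and 47.7 CPM in CA1-like nuclei. Homer3, a postsynaptic scaffold protein, was 47.1 CPM in members and 38.3 in mossy-like nuclei, with 2.11 to 8.80 in the others. Dkk3 was 174 CPM in members, 146 in CA1-like and 55.3 in mossy-like nuclei, and Nrip3 was 89.9 CPM in members against 73.9 in mossy-like, 62.8 in inhibitory and 27.6 in CA1-like nuclei. Elavl2, a neuronal RNA-binding protein, was 329 CPM in members but 580 in inhibitory nuclei.

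**Figure D1:**
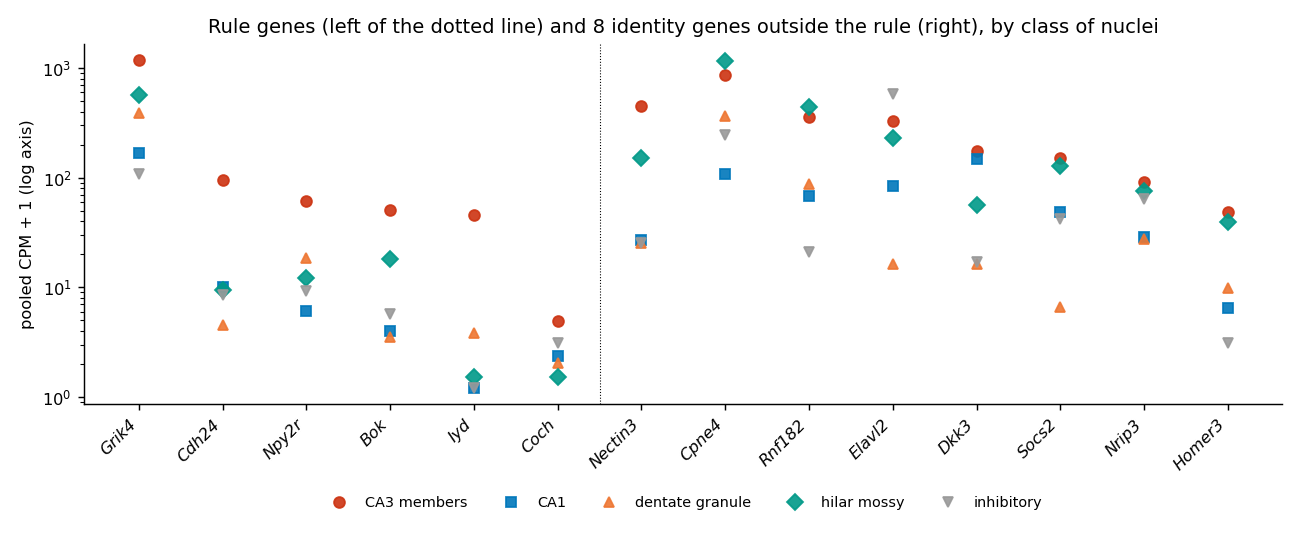
Summed level of each gene as CPM + 1 (log axis) in CA3 members and 4 comparison classes, with the genes of the rule left of the dotted line and 8 identity genes outside the rule on the right. Nectin3 was 446 CPM in members and 149 CPM in mossy-like nuclei, while Cpne4 and Rnf182 were higher in mossy-like nuclei than in members, and Coch was at 3.95 CPM.

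Single members mostly carried several identity genes. At least 6 of the 8 were detected in 147 members (90.7%), with a median of 7, and 57 members had all 8. The same count was 6 or more in 56.2% of mossy-like nuclei (median depth 12631 UMIs), 2.20% of CA1-like (10718 UMIs), 1.57% of inhibitory (9853 UMIs) and 0.556% of granule-like nuclei (7679.5 UMIs), which are shallower than members. Nectin3 was detected in 152 members (93.8%), against 15.2% of granule-like nuclei, which should lack it, and 83.2% of mossy-like nuclei. Cpne4 was detected in 156 members. The 5 members that lacked both Nectin3 and Cpne4 had 3 to 5 UMIs of Grik4, came from young mouse 1 (2 nuclei), acutely restricted mice 1 and 3 and long-term restricted mouse 1.

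Markers of other classes were low in members but not all at 0. The CA1-like, granule-like, mossy-like and inhibitory nuclei were chosen on genes of their own lists, so their high sums were fixed in advance. The CA1 list summed to 235 CPM in members against 1107 in CA1-like nuclei, and 62.2 to 335 by mouse. The granule list summed to 37.9 CPM against 1974 in granule-like nuclei, with Tdo2 and Dsp at 0. That list holds Prox1 and the inhibitory list Gad1 and Gad2, which the rule limits. The mossy list summed to 63.9 CPM against 528, with Calb2 and Drd2 at 0 by the rule, and the CA2 list to 32.9 CPM. The inhibitory list summed to 7.25 CPM against 1649, with Dlx1 and Slc32a1 at 0 and a range of 0 to 31.4 by mouse. All 6 oligodendrocyte markers were detected, and their sum moved with the groups. It was 27.9 and 28.1 CPM in the young mice, 89.6 to 145 in old ad libitum mice, 48.6 to 377 in acutely restricted mice and 42.5 to 47.4 in long-term restricted mice. The astrocyte list summed to 33.6 CPM, with 187 CPM in acutely restricted mouse 3 and 15.7 to 46.5 in the others. The microglia list summed to 36.9 CPM, with 102 in the same mouse. Precursor and endothelial lists were each at 3.62 CPM, with C1ql1, Kcnj8 and Vtn at 0.

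The genes that most separated members from the next of the comparison classes, at 50 CPM or more, were led by Cdh24 of the rule and by Hs3st4. Excitatory neurons outside those classes were not compared, here or for the genes of the following paragraphs. No gene is thus shown to be particular to members. Hs3st4, which sulfates heparan chains, was 2283 CPM in members, 468 in CA1-like and 421 in mossy-like nuclei. Trhde, the ectoenzyme that degrades thyrotropin-releasing hormone, was 927 CPM against at most 260. Ifi203, an interferon-activated gene, was 50.7 CPM against 11.2 in mossy-like and at most 1.40 in the other classes. Ephb1, an ephrin receptor, was 274 CPM against at most 102, and Raver2, a splicing cofactor, 460 against at most 182. Cdh24, Pxn, Npy2r, Nectin3, Cachd1, Col11a1, Chgb, Tmod3 and Gpm6b were also among the 15. Col11a1, a fibrillar collagen chain, varied most between mice in this group, from 7.85 to 207 CPM.

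Genes low in members and high in the comparison classes were led by Cntn5 and Cntnap5a. Cntn5, a contactin, was 72.1 CPM in members and 718 to 2342 CPM in the 4 other classes. Cntnap5a, a neurexin-family protein, was 60.9 CPM against 360 to 1263, and Kirrel3, an adhesion molecule, was 185 CPM against 956 to 2337. Ptprd, a receptor phosphatase, was 1139 CPM in members and 4704 and 4826 CPM in CA1-like and granule-like nuclei, and all 9 mice had members below both classes. Cntn5 was 0 to 232 CPM over mice, and was below CA1-like, granule-like and inhibitory nuclei in 9 of 9.

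Receptor subunits differed from class to class. Among kainate subunits, Grik5 was 189 CPM in members and 86 to 155 elsewhere, while Grik1 was 6.59 CPM against 1842 in inhibitory nuclei. Grik2 was 1731 CPM in members, below the granule, mossy and inhibitory classes and above the 1192 CPM of CA1-like nuclei. Neto1, the auxiliary subunit of kainate receptors, was 923 CPM in members against 212 to 508 elsewhere and was higher in members than in CA1-like, granule-like and inhibitory nuclei in 9 of 9 mice. Shisa6, an auxiliary subunit of AMPA receptors, was 1432 CPM against 684 in CA1-like nuclei, also in 9 of 9 mice. Grin3a was 14.8 CPM against 101 in CA1-like nuclei. Gabrb2, a GABA-A receptor subunit, was 184 CPM in members and 266 to 589 in the other classes, and Gabrd was 1.3 CPM against 35 in granule-like nuclei.

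Channels set members apart from CA1 in both directions. Kcnq5, an M-type potassium channel, was 4085 CPM in members, 1415 in CA1-like and 145 in granule-like nuclei, and higher in members in 9 of 9 mice. Cacna1a, the P/Q-type calcium channel, was 1076 CPM against 397 to 630 elsewhere, with the same 9 of 9. Kcnh7 was 97.5 CPM in members and 1603 in CA1-like nuclei. Kcnd2, which carries the A-type current, was 2280 CPM against 3939 in CA1-like and 4222 in granule-like nuclei and was lower in members in 9 of 9 mice. In signalling and guidance, Prkca (protein kinase C alpha) was 1349 CPM against 297 to 650 elsewhere and Pde4d 2551 CPM against 966 in CA1-like nuclei. Slit2, a guidance ligand, was 710 CPM in members and 1070 in mossy-like nuclei but 90 to 250 in the others, and Adcy1 was 22.7 CPM against 131 and 245 CPM in CA1-like and granule-like nuclei. These are levels of the same gene between classes, on the CPM scale.

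The threshold of the rule lay within a gradient. At a sum of 3 over the 5 genes, 1 UMI short, 177 nuclei met the other conditions, and at a sum of 2 there were 388. Of the members, 94 had a sum of 4, 40 a sum of 5 and 28 a higher one, up to 10. Median depth was 12529.5 UMIs at a sum of 2, 14777 at 3, 15871 at 4 and 18581.5 at 5 or more. Grik4 was 929, 1058, 1092 and 1266 CPM in the same order. Nectin3 was 291.5 and 360 CPM at sums of 2 and 3, 464 at 4 and 427 at 5 or more. Glis3, a granule-cell marker, was 141 CPM at a sum of 2, 54.1 at 3, 8.18 at 4 and 12.4 at 5 or more. The 565 nuclei with sums of 2 or 3 are used below as nuclei just outside the rule, and 352 of them (62.3%) had at least 6 of the 8 identity genes. They share no nucleus with the members, but come from the same mice.

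The other conditions of the rule removed nuclei as well. Of 212 nuclei that met the 5-gene condition, 13 were left out by Grik4. Among the 199 that met both, 28 failed on Prox1, 12 on Gad1 and Gad2 and 9 on Drd2 or Calb2, and some failed more than 1.

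The share of members differed widely between mice of 1 group. Among young mice it was 0.230% in mouse 1 (19 of 8257 nuclei, exact Clopper-Pearson 95% interval 0.139 to 0.359%), 0.101% in mouse 3 (8 of 7922) and 0 of 9950 in mouse 2, which allows a share of up to 0.0302% (the limit of 3 counts). Old ad libitum mouse 1 had 0.540% (19 of 3516, interval 0.326 to 0.843%), mouse 2 had 0.0597% (6 of 10059) and mouse 4 had 0.0453% (3 of 6630). Acutely restricted mice 1, 2 and 3 had 0.366% (33 of 9007), 0.111% (8 of 7190) and 0.0730% (9 of 12336). In every group the mouse numbered 1 had the highest share of all retained nuclei.

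Long-term restricted mice 1 and 2 had 0.323% (33 of 10206) and 0.273% (22 of 8073), mouse 3 had 0.0456% (2 of 4387) and mouse 4 had 0 of 7894, which allows up to 0.0380% by the same limit. Intervals and limits cover counting error only. Group means were 0.110 ± 0.115% (SD, n = 3) in young, 0.215 ± 0.282% (n = 3) in old ad libitum, 0.184 ± 0.160% (n = 3) in acutely restricted and 0.160 ± 0.161% (n = 4) in long-term restricted mice. Each SD was nearly as large as its mean or larger, and all groups overlapped. An exact permutation test of the F statistic over the 4 groups gave p = 0.852. Thinning every nucleus of at least 5000 UMIs to 5000 UMIs left 5 members and p = 0.186 in the same exact permutation test. Each mouse then had 0 or 1 member, so among mice with equal counts the number of nuclei set the odds tested. That p cannot show a difference in share. At 10000 UMIs, an alternative added after seeing the data, 44 members were left, and the mouse numbered 1 no longer had the highest share in 3 of the 4 groups. Young mouse 3 then had 0.488% (4 members) against 0.158% (3) in mouse 1, and old ad libitum mouse 2 had 0.128% (3) against 0.0503% (1). Long-term restricted mouse 2 had 0.610% (8) against 0.428% (11). The group means at 10000 UMIs were 0.215% in young, 0.0773% in old ad libitum, 0.214% in acutely restricted and 0.259% in long-term restricted mice (exact permutation p = 0.501). The old ad libitum mean was thus the highest before thinning and the lowest after it, where it rested on 1, 3 and 1 members. With nuclei just outside the rule added, thinning to 5000 UMIs left 171 nuclei and p = 0.468 in the exact permutation test. A difference in share between the groups was not detectable at these depths. Fewer nuclei of a type and less captured RNA per nucleus cannot be told apart.

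**Figure D2:**
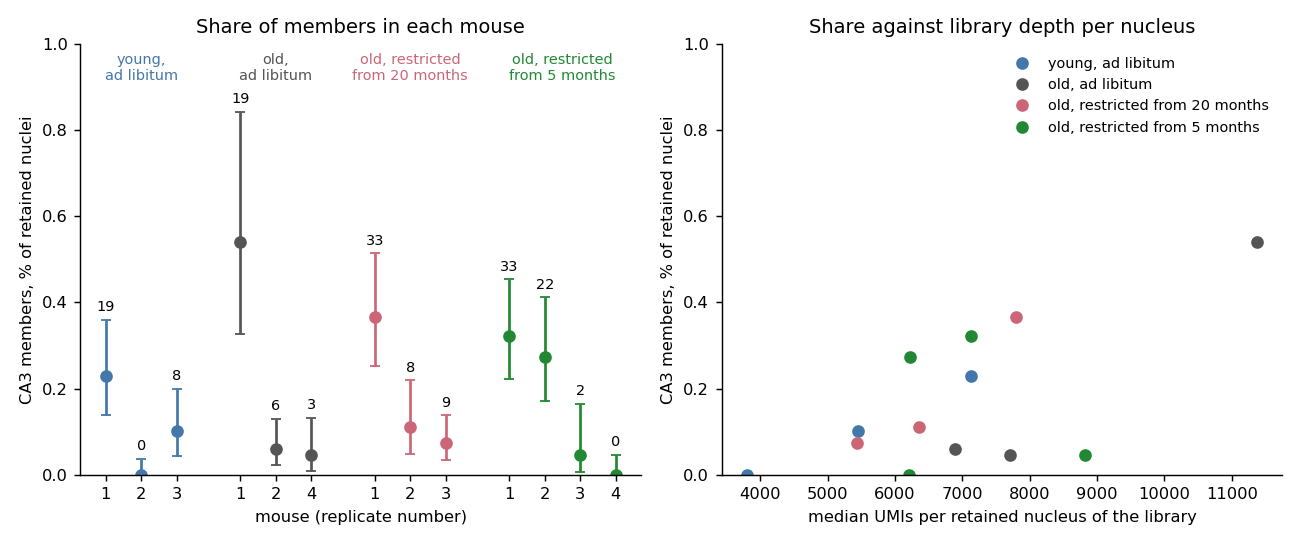
Left, members as a percent of retained nuclei in each mouse with exact 95% intervals and the number of members above each point. Right, the same share against the median UMIs per retained nucleus, where old ad libitum mouse 1 is the point at 11375 UMIs and 0.540%.

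Members also differed among themselves. Over 6716 genes with at least 50 UMIs in members, the median ratio of variance to the Poisson variance was 1.17, and 661 genes were above 2. Some of the highest ratios came from a few nuclei. For Brinp3, 91 of 132 UMIs lay in 1 nucleus of old ad libitum mouse 1, and for Tenm3 1 nucleus held 31.1% of the UMIs. Kcnq5 (ratio 39.6), Gabrg3 (24.6) and Tafa1 (21.7) were different, since Kcnq5 was detected in 156 members, Tafa1 in 146 and Gabrg3 in 56.

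Gabrg3, a GABA-A receptor subunit, divided the members with little in between. It had 0 UMIs in 106 members, 1 to 4 in 15 and at least 5 in 41 (25.3%), up to 53. This division was made after the values were seen, so it has no test. The 41 members had a median of 196.7 CPM of Tafa1, which encodes a secreted TAFA-family peptide, and the other 121 a median of 4419 CPM. Tafa1 had no UMI in 15 of the 41 and in 1 of the 121. Median depths were 16506 and 16944 UMIs. Among the highest doublet scores were 9 of the 41 and 6 of the 121, and 4 of the 5 members without Nectin3 and Cpne4 were among the 41. The part of these nuclei in the division was not tested. At least 1 UMI of Gabrg3 was found in 34.6% of members, below every comparison class. It was found in 81.2% of CA1-like, 85.5% of inhibitory, 45.7% of granule-like and 44.5% of mossy-like nuclei. Whether the Gabrg3 side holds nuclei of another class was not tested.

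Many genes differed between the sides. In members with at least 5 UMIs of it against the rest, St18, a zinc-finger transcription factor, was 508 against 28.4 CPM, and Htr2c, the serotonin 2C receptor, was 331 against 21.8 CPM. Efna5, an ephrin ligand, was 118.5 against 3.05 CPM and Unc5d, a netrin receptor, 1015 against 99.9 CPM. Sgcd, a sarcoglycan, was 2737 against 333 CPM, Col6a1 103.7 against 2.18 CPM and Kcnh7 320.5 against 25.3 CPM. In 97 and 363 other nuclei, those just outside the rule with at least 3 identity genes, St18 was 410 against 28.9 CPM, Htr2c 286 against 31.1 and Efna5 184.5 against 17.9. The same genes thus differed in nuclei that the rule had left out.

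Genes on the other side included Kcnq5, at 2030 CPM with Gabrg3 against 4750 CPM without, and 1636 against 4617 CPM in the other nuclei. Trps1, a transcriptional repressor, was 692 against 1977 CPM, and Epha3, an ephrin receptor, 226 against 753 CPM. Rph3a, a synaptic vesicle protein, was 18.9 against 118 CPM. Nectin3 itself was 248 against 511 CPM, while Grik4 was 1041 against 1218 CPM. In the 8 mice where both sides could be compared, Gabrg3, St18, Htr2c, Unc5d, Sgcd, Kcnh7 and Asap2 were higher, and Tafa1, Trps1, Kcnq5, Rph3a, Chst9, Synpr, Brinp2, Magi3 and Galnt14 lower, on the Gabrg3 side in every one. Over the 162 members Spearman's rho was -0.59 for Gabrg3 with Tafa1, 0.63 with St18 and 0.61 for Epha3 with Trps1, and over the 460 other nuclei it was -0.50, 0.59 and 0.72. Nuclei of 1 library share its depth, so these are descriptions. Gabrg3 spans chromosome 7 from 56716465 to 57387188 (minus strand) and Kcnq5 chromosome 1 from 21398403 to 21961942 (minus strand), in GRCm38.

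**Figure D3:**
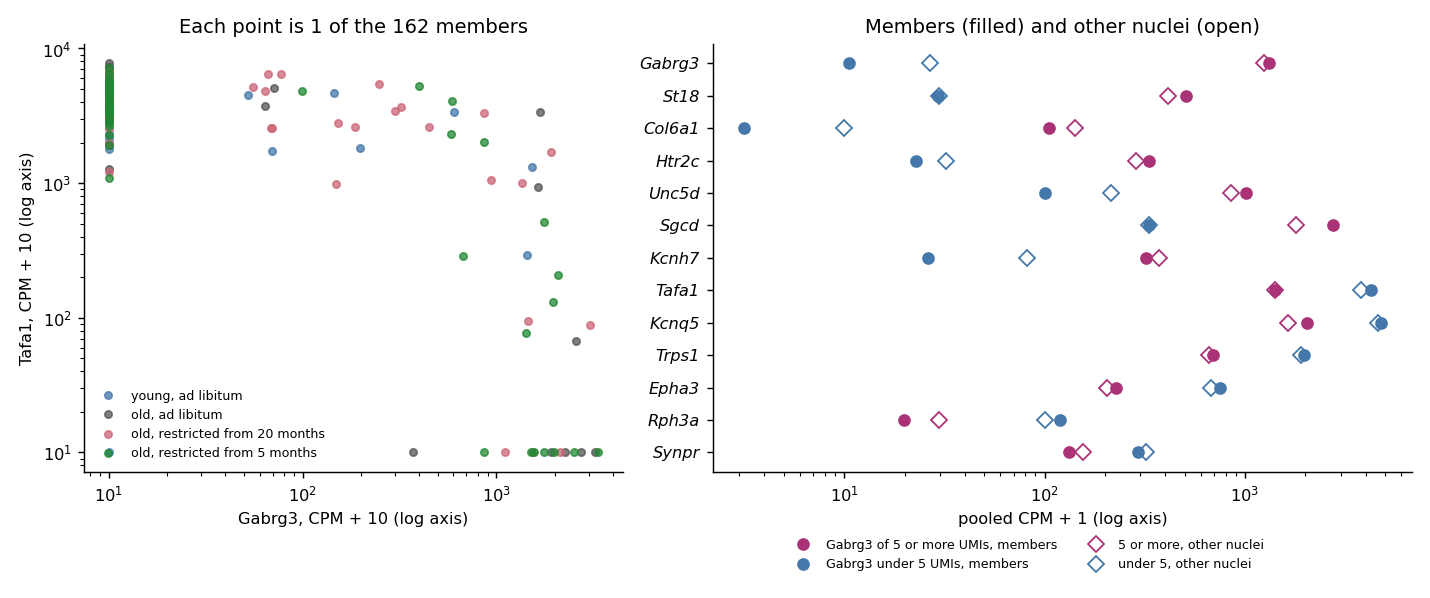
Left, Gabrg3 against Tafa1 in each of the 162 members (CPM + 10, both axes log), coloured by group. Right, summed CPM + 1 (log axis) of 13 genes, Gabrg3 itself included, in nuclei with at least 5 UMIs of Gabrg3 and in the rest, for members and for other nuclei, with Tafa1 at 1409 and 4274 CPM in members.

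The Gabrg3 side did not have the same weight in each mouse. It held 3 of 19 and 0 of 8 members in young mice 1 and 3, 3 of 19, 3 of 6 and 2 of 3 in old ad libitum mice, 10 of 33, 2 of 8 and 2 of 9 in acutely restricted mice, and 10 of 33, 6 of 22 and 0 of 2 in long-term restricted mice. By group it was 11.1% of young, 28.6% of old ad libitum, 28.0% of acutely restricted and 28.1% of long-term restricted members. Among the other nuclei the shares were 16.0, 41.5, 23.8 and 11.02% in that order. Pooled over mice, the share among members was lower in young mice and nearly the same in the old groups, restricted or not. Young mouse 1 and old ad libitum mouse 1 both had 3 of 19. Old ad libitum mouse 4 (2 of 3) did not enter the fits below. The part of these shares in the group differences below was not tested.

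Group differences were tested on sums of members per mouse. Only 3 mice had 20 members, so the 9 mice with at least 5 entered, namely young 1 and 3, old ad libitum 1 and 2, acutely restricted 1 to 3 and long-term restricted 1 and 2. That limit was chosen after the numbers of nuclei were known. Of 5375 genes tested with edgeR's quasi-likelihood test, none passed an adjusted p of 0.05 for ageing, the comparison of old with young mice fed ad libitum (0% called). At an unadjusted p under 0.05 edgeR had 238 genes higher in old mice (4.43%) and 151 lower (2.81%). DESeq2 called 4 genes (0.0744%), and edgeR with a term for the libraries numbered 1 called 15 (0.279%), while with nuclei just outside the rule added that term gave 7 of 9233 (0.0758%). Levels below are edgeR's log2 CPM with a prior count of 2, and changes are log2 fold changes ± SE.

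The 10 genes of smallest p whose groups did not overlap were all higher in old mice. Lingo2, an adhesion protein that DESeq2 called, was lower (-1.40 ± 0.351, edgeR adjusted p = 0.319). Dgkg encodes diacylglycerol kinase gamma, which removes the second messenger diacylglycerol, and lies on chromosome 16 from 22468461 to 22657221 (minus strand). It had 90 and 38 UMIs in the young mice and 507 and 74 in the old, or 8.46 and 8.62 against 9.87 and 9.70 log2 CPM. The restricted mice lay between 9.10 and 9.72 log2 CPM, and no young mouse reached the level of any old mouse. The ageing difference of Dgkg was 1.29 ± 0.239 (edgeR, adjusted p = 0.0553). With the term for libraries numbered 1 the adjusted p of Dgkg was 0.00367 in edgeR, and over 22 alternatives it ran from 0.00191 to 0.332, with values of 0.99 to 1.49. The rise was not confined to members. Dgkg differed by 0.52 in CA1-like nuclei (edgeR adjusted p = 0.317) and by 0.64 in granule-like nuclei (0.0451).

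The nuclei just outside the rule gave a separate set of nuclei from 12 mice, 3 per group. There Dgkg stood at 9.01, 8.83 and 8.87 log2 CPM for the young and at 9.67, 9.78 and 10.02 for the old animals fed ad libitum, a difference of 0.92 ± 0.165 (edgeR, unadjusted p = 1.702e-05, adjusted p = 0.0620). In those nuclei 3 of 3 tested CA1 markers were higher (median 0.67) and 2 of 2 tested granule markers lower (median -0.64) in old mice, and their part in the Dgkg value was not tested. The Dgkg values of the groups did not overlap there either, as was the case for 14.5% of the 7287 genes tested in those nuclei. None of these 7287 genes was called for ageing by edgeR, and 340 (4.67%) were higher and 294 (4.03%) lower at an unadjusted p under 0.05. With the term for libraries numbered 1 edgeR called 19 genes there (0.261%), 4 higher and 15 lower, and Dgkg was among them (adjusted p = 0.0135). In long-term restricted mice Dgkg outside the rule was 9.43, 9.37 and 9.30, below the 3 old ad libitum mice (-0.46 ± 0.161, edgeR adjusted p = 1.00), while in members the difference was -0.14 ± 0.216.

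Nos1ap, which encodes an adaptor of neuronal nitric oxide synthase, lies on chromosome 1 from 170302668 to 170589861 (minus strand). It was 7.86 and 6.89 log2 CPM in young and 8.95 and 9.35 in old ad libitum members. The restricted mice lay between 8.04 and 8.96. The ageing difference was 1.60 ± 0.316 (edgeR, adjusted p = 0.0942, and 0.000324 to 0.545 over 22 alternatives). Outside the rule Nos1ap was 8.05, 8.45 and 8.05 in young and 8.78, 8.68 and 8.91 in old mice, a difference of 0.64 ± 0.200. Both Dgkg and Nos1ap were also higher on the Gabrg3 side, at 948 against 627 CPM and 517 against 351 CPM.

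Ptprg, a receptor tyrosine phosphatase on chromosome 14 from 11553532 to 12242041 (plus strand), was 9.35 and 9.40 in young and 10.45 and 10.35 log2 CPM in old members. Its ageing difference was 1.04 ± 0.226 (edgeR, adjusted p = 0.113), and 0.67 ± 0.158 outside the rule. Slc24a2, a potassium-dependent sodium-calcium exchanger, differed by 0.90 ± 0.194, with 10.44 and 10.32 in young and 11.03 and 11.51 in old members. Ank3, which encodes ankyrin-G of the axon initial segment, was 10.76 and 10.71 in young and 11.42 and 11.66 in old members (0.81 ± 0.178). Prkca was 9.91 and 10.06 in young and 10.57 and 11.42 in old members (1.05 ± 0.236). The edgeR adjusted p was 0.113 for Slc24a2 and Ank3 and 0.138 for Prkca.

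The other genes among the 10 of smallest p were Ghr, Slit3, Cntnap5b and Cacnb2, with edgeR adjusted p from 0.138 to 0.189. Ghr, the growth hormone receptor, had 1 and 1 UMI in the young mice and 39 and 5 in the old mice, found in 13 of 19 and 4 of 6 old members. These counts are not scaled for depth. Members of old mouse 1 had a median of 31705 UMIs, against 14819 and 13198.5 in the young mice. The scaled difference of Ghr was 3.48 ± 0.802. Outside the rule Ghr groups overlapped. Slit3, a guidance ligand, differed by 0.87 ± 0.210, and Cacnb2, an auxiliary subunit of calcium channels, by 1.03 ± 0.242. Apart from Ghr and Cntnap5b, the 10 genes were also higher in old CA1-like nuclei, by 0.31 to 0.52, and in granule-like nuclei, by 0.32 to 0.64. Ghr was at -0.12 and 0.10 and Cntnap5b at -0.11 and 0.21 in those classes. In the nuclei just outside the rule 8 of these 10 genes had groups that did not overlap, all except Ghr and Cntnap5b, beside 14.5% of all genes there. The term for libraries numbered 1 also brought in Sorcs3 (2.42), Dab1 (1.14), Mettl24 (2.65) and Col11a1 (3.56), and outside the rule the groups overlapped for all but Dab1. These nuclei come from the same mice, so they are no separate sample of animals. Among members 36.6% of all genes had groups that did not overlap, and the naming rule required it.

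**Figure D4:**
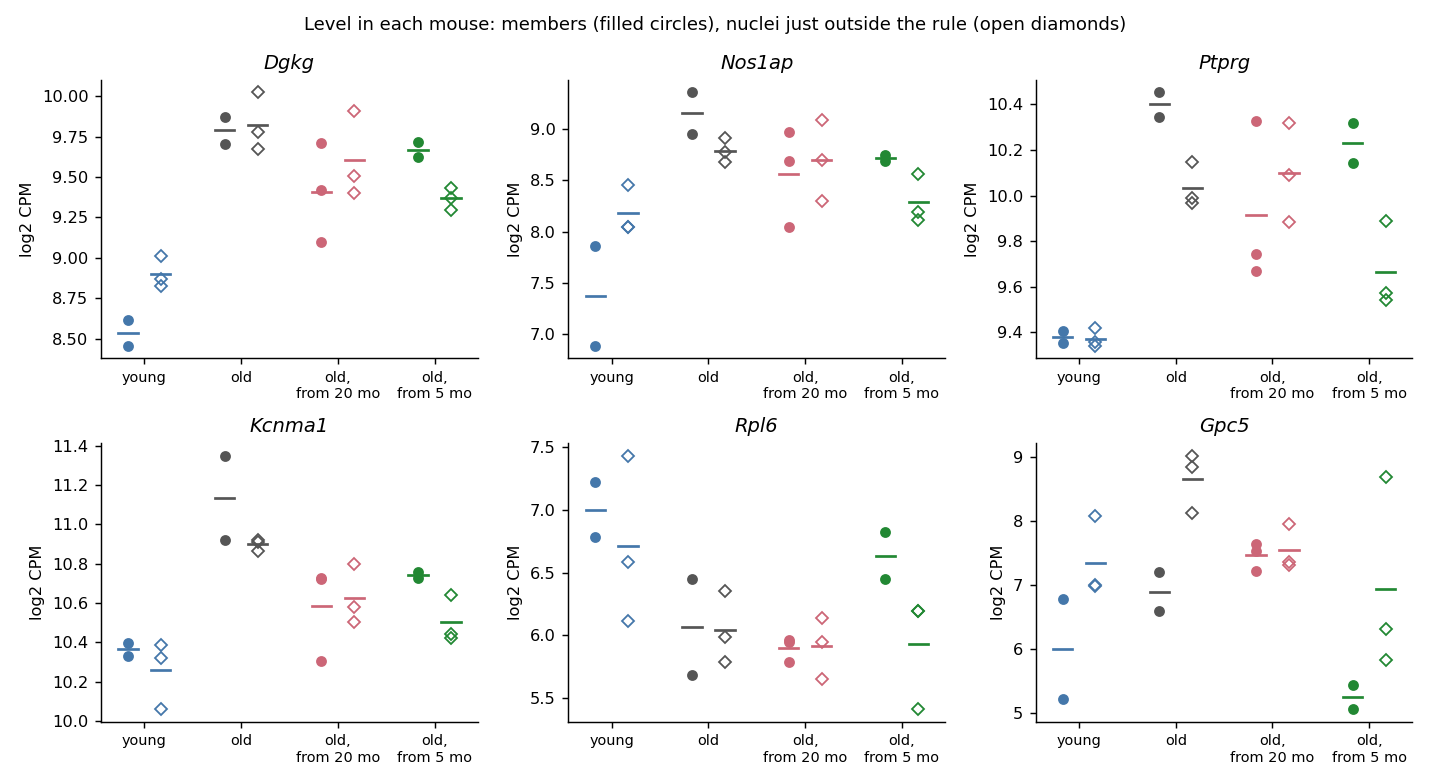
Level in log2 CPM of 6 genes in each mouse, as filled circles for members (9 mice) and open diamonds for nuclei just outside the rule (12 mice), with a bar at each group's mean. Dgkg, Nos1ap, Ptprg and Kcnma1 were lower in every young mouse than in every old ad libitum mouse in both sets of nuclei.

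The gene lists put single values in context, and without added terms edgeR called no gene of any list in the 4 comparisons. With the term for libraries numbered 1 it called Slit3 (adjusted p = 0.0493), Prkca (0.0280) and Cacnb2 (0.00945) for ageing and Grm7 (0.0412) for acute restriction in members, and outside the rule Hspa8 and Tenm4 for ageing. Over all genes tested the median ageing difference in members was -0.02. All 9 tested genes of cytosolic ribosomal proteins, of 79 listed, were lower in old members, with a median of -0.60, and 1 of them was so at an unadjusted p under 0.05, beside 2.81% of all genes tested. Rpl6 was 6.78 and 7.22 log2 CPM in young and 6.45 and 5.68 in old members (-0.70 ± 0.389), and Rpl13 differed by -1.36 ± 0.482. In CA1-like and granule-like nuclei Rpl6 differed by -0.61 and -0.76 and Rpl13 by -0.52 and -0.65. Outside the rule 37 of 43 tested ribosomal genes were lower in old mice, with a median of -0.52 beside a median of -0.001 for all genes. Rps2 differed by -0.98 ± 0.279 there without overlap between the groups. Of heat shock genes 6 of 7 were lower in old members, with a median of -0.62. Hsp90ab1, a chaperone, differed by -0.63 ± 0.350 in members and by -1.06 ± 0.263 outside the rule. It differed by -0.862 in CA1-like and by -0.875 in granule-like nuclei. Of the oxidative phosphorylation list 11 of 16 were lower, with a median of -0.28, and outside the rule 20 of 26 were, with a median of -0.34.

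All 7 tested genes of the glucocorticoid and mineralocorticoid list were higher in old members, with a median of 0.32, and 2 of them were so at an unadjusted p under 0.05, beside 4.43% of all genes tested. Zbtb16, a zinc-finger repressor induced by glucocorticoids, was 6.51 and 6.89 log2 CPM in young and 7.61 and 8.59 in old members (1.44 ± 0.363). It differed by 0.585 in CA1-like nuclei and by 0.56 in granule-like nuclei (edgeR adjusted p = 0.305 and 0.0484). Fkbp5, a co-chaperone of the glucocorticoid receptor, had 10 and 2 UMIs in young and 48 and 6 in old members (1.33 ± 0.487). Outside the rule Fkbp5 was 5.65, 6.52 and 5.89 in young and 6.63, 6.72 and 6.55 in old ad libitum mice (0.77 ± 0.241), and 5.89, 5.76 and 6.19 in long-term restricted mice, below every old ad libitum mouse (-0.75 ± 0.231). In members Fkbp5 in long-term restricted mice overlapped the old ad libitum mice, and outside the rule 4 of the 7 tested list genes were higher and 3 lower in old mice. Errfi1, a feedback inhibitor of the EGF receptor, was lower there at an unadjusted p under 0.05 (-1.01 ± 0.349).

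Of 24 tested potassium channel genes 14 were higher in old members (median 0.19), with 6 higher and 2 lower at an unadjusted p under 0.05, beside 4.43% and 2.81% of all genes tested. Kcnma1, the BK channel, was 10.33 and 10.40 log2 CPM in young and 10.92 and 11.35 in old members (0.78 ± 0.201), and it differed by 0.63 ± 0.148 outside the rule. Kcnq3, an M-type channel, differed by 0.67 ± 0.200 and by 0.42 ± 0.176 in the same order, and Kcnn2, the SK2 channel, by 0.82 ± 0.258 and 0.11 ± 0.173. In CA1-like and granule-like nuclei Kcnma1 differed by 0.45 and 0.59, Kcnq3 by 0.51 and 0.59 and Kcnn2 by -0.03 and -0.02. Of AMPA and NMDA receptor genes 9 of 12 were higher (median 0.20), with Shisa6 at 0.71 ± 0.195 in members and 0.60 ± 0.188 outside the rule. Shisa6 differed by 0.31 in CA1-like and by 0.58 in granule-like nuclei. Of 5 tested kainate receptor genes 3 were higher and 2 lower, with the auxiliary subunits Neto1 at 0.62 and Neto2 at -0.67 and the subunit Grik2 at -0.26. That list holds Grik4 and the cadherin list holds Cdh24, both genes of the rule. The calcium and cAMP list (26 tested, median 0.13) held Prkca and Pde10a (0.85). Cadherins had a median of 0.15 over 17 tested and 0.23 over 19 outside the rule.

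Several other lists stood near the median of all genes for ageing, but excitatory and oligodendrocyte markers did not. GABA-A receptors (9 tested), metabotropic glutamate receptors (5), synaptic adhesion (28), axon guidance (20), sodium, calcium and HCN channels (22) and transmitter release (17) had medians from -0.07 to 0.05. Clock genes had a median of -0.20 over 8 tested, fasting genes -0.06 over 4, sterol synthesis 0.07 over 2 and immediate early genes 0.22 over 3. CA3 identity genes had a median of -0.14, with Nectin3 at -0.64 ± 0.286. Excitatory markers had a median of -0.68 over 5 tested, with the vesicular glutamate transporter Slc17a7 at 8.65 and 8.92 in young and 8.13 and 7.92 in old members (-0.72 ± 0.272), against -0.23 ± 0.206 outside the rule. The 3 tested oligodendrocyte markers had a median of 1.87, beside the summed levels given above. Of the remaining marker lists, 2 CA1 genes had a median of -0.14, the mossy marker Ajap1 was at -0.22 and the astrocyte marker Slc1a3 at -1.93, and no CA2, granule, inhibitory, microglia, precursor or endothelial marker was tested.

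Restriction was compared with old ad libitum mice, and both comparisons share those mice. For long-term restriction 0 of 5375 genes were called in members by edgeR (0%), with 57 higher (1.06%) and 80 lower (1.49%) at an unadjusted p under 0.05, and DESeq2 called 0. For acute restriction edgeR called 0 (0%), with 85 higher (1.58%) and 111 lower (2.07%), and DESeq2 called 1 (0.0186%). With the term for libraries numbered 1 edgeR called 3 genes (0.0558%) for long-term and 4 (0.0744%) for acute restriction. Groups did not overlap for 32.5% of genes in the first comparison and 19.7% in the second. In the nuclei just outside the rule edgeR called 0 of 7287 genes (0%) in both. There 137 genes (1.88%) were higher and 171 (2.35%) lower with long-term restriction at an unadjusted p under 0.05, and 102 (1.4%) and 152 (2.09%) with acute restriction.

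For long-term restriction the smallest adjusted p was 0.131 (edgeR), for Gpc5, Gm20125 and Tmem191c. Gpc5, a glypican, differed by -1.94 ± 0.394, with an adjusted p of 5.123e-07 to 1.00 over 22 alternatives, the lowest without members of at least 5 Gabrg3 UMIs, which left 1 old ad libitum mouse. Of its UMIs 66 of 76 in old ad libitum mouse 1 and 8 of 8 in mouse 2 lay in 1 member each. Tmem191c, a transmembrane protein, was 6.22 and 6.41 log2 CPM in old ad libitum members and 7.45 and 7.94 in long-term restricted members (1.51 ± 0.323). It was 7.10 to 7.57 in acutely restricted and 7.48 and 7.22 in young members, so the old ad libitum mice were the low ones, but outside the rule the difference was 0.23. Kcnn2 was 8.83 and 9.20 in old ad libitum and 8.36 and 8.15 in long-term restricted members (-0.74 ± 0.240), and -0.38 ± 0.171 without overlap outside the rule, where 11.2% of genes did not overlap. Slc30a5, a zinc transporter, differed by -1.44 in members and -0.64 outside the rule. Pde10a, a cyclic nucleotide phosphodiesterase, differed by -0.77 and Epb41l1, a membrane skeleton protein, by -1.10, while Echdc1 and Gfpt1 were at 1.59 and 1.50. Brinp3 differed by -5.01, with 91 of its 132 UMIs in the 1 nucleus of old ad libitum mouse 1 named above.

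Klf9, a transcription factor induced by glucocorticoids, had the smallest p of its list in both restriction comparisons. It was 6.36 and 6.74 log2 CPM in old ad libitum members, 5.81 and 3.96 in long-term and 5.70, 5.56 and 5.10 in acutely restricted members. The differences were -1.34 ± 0.490 and -1.004 ± 0.477 (edgeR adjusted p = 1.00 for both). Outside the rule Klf9 was at 0.12 ± 0.304 and 0.08 ± 0.298, so the nuclei next to the members gave no such difference. The list as a whole had 6 of 7 genes lower with long-term restriction (median -0.42) and 4 of 7 lower with acute restriction (median -0.20), beside a median of 0.003 and 0.02 over all genes.

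For acute restriction edgeR called no gene without added terms. Luzp2, a leucine zipper protein, was 9.94 and 10.51 log2 CPM in old ad libitum and 9.04, 8.65 and 8.998 in acutely restricted members (-1.31 ± 0.244, edgeR adjusted p = 0.117, 9.999e-05 to 1.00 over 22 alternatives). Luzp2 was 9.22 and 10.07 in young members, which spanned both groups, and outside the rule the difference was -0.16. Grm7, a presynaptic metabotropic glutamate receptor, was 11.76 and 12.16 in old ad libitum and 11.35, 11.18 and 11.10 in acutely restricted members (-0.75 ± 0.162, edgeR adjusted p = 0.149), against 0.07 outside the rule. Adarb2 differed by 3.32, but 25 of the 61 UMIs in acutely restricted mouse 1 lay in 1 member that lacked Nectin3 and Cpne4.

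Other genes named for acute restriction were mostly lower. Pde10a differed by -0.91, Oxr1 by -0.77 and Arglu1 by -0.85, against -0.44 for Arglu1 outside the rule. Fhl2 differed by -1.54 and by -0.62 outside the rule, where its groups did not overlap, as for 10.5% of genes there. Gm20125 and Fras1 were at -2.17 and -2.06. Necab1, a calcium-binding protein, had 0 UMIs in both old ad libitum mice and 27, 5 and 2 in acutely restricted mice. Kcnma1 was -0.53 ± 0.179 in members and -0.26 ± 0.146 outside the rule, with no overlap in either set.

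Rsrp1, an arginine- and serine-rich protein, was chosen after its values were seen. It was the 1 gene of 9233 (0.0108%) that edgeR called for acute restriction when members and nuclei just outside the rule were summed together. With at least 15 nuclei per mouse in place of 20, edgeR called 0 genes in that sum (smallest adjusted p 0.504). Without doublets it also called 0 (smallest adjusted p 0.0538). In members Rsrp1 was 8.16 and 8.27 log2 CPM in old ad libitum and 7.22, 7.59 and 7.64 in acutely restricted mice (-0.79 ± 0.259). Outside the rule Rsrp1 was 8.01, 8.29 and 8.52 against 7.24, 7.26 and 7.48 (-0.98 ± 0.164, edgeR adjusted p = 0.05002, and 0.0270 with the term for libraries numbered 1, where it was the 1 gene of 7287 called, 0.0137%). Long-term restricted members were at 7.88 and 7.96.

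Long-term and acute restriction were set against each other in the same edgeR fit, and 1 gene of 5375 was called (0.0186%), Gpc5, with 58 genes higher (1.08%) and 67 lower (1.25%) at an unadjusted p under 0.05. DESeq2 also called 1 gene. Gpc5 lies on chromosome 14 from 115092215 to 116525179 (plus strand). It was 7.22, 7.53 and 7.64 log2 CPM in acutely restricted and 5.44 and 5.06 in long-term restricted members, a fall of 2.32 ± 0.366 (adjusted p = 0.00467 by edgeR). Old ad libitum members were at 7.19 and 6.59 and young members at 6.78 and 5.22, where 21 of the 27 UMIs of young mouse 1 lay in members that lacked Nectin3 and Cpne4.

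The UMIs of Gpc5 came from few nuclei. In acutely restricted mouse 1 there were 82 UMIs in 8 of 33 members, of which 43 lay in 1 member and 77 in members with the highest doublet scores. In acutely restricted mice 2 and 3 a single member held 19 of 22 and 18 of 21 UMIs. Long-term restricted mice 1 and 2 had 20 UMIs in 8 of 33 members and 9 UMIs in 3 of 22. Without the members of highest doublet scores Gpc5 differed by -1.61 (edgeR adjusted p = 0.999), and in members with fewer than 5 UMIs of Gabrg3 by -1.66 (adjusted p = 0.999). Over 22 alternatives the adjusted p of Gpc5 was under the threshold in 16 and ran from 5.358e-05 to 1.00. Without long-term restricted mouse 1 the edgeR adjusted p was 0.159, and without mouse 2 it was 0.306. Outside the rule Gpc5 was 7.36, 7.96 and 7.32 in acutely restricted and 6.31, 5.82 and 8.69 in long-term restricted mice, which overlapped (-0.31 ± 0.707). No gene of 7287 was called there by edgeR between the restrictions (64 or 0.878% higher and 73 lower at an unadjusted p under 0.05), and groups did not overlap for 7.9% there and 16.3% among members.

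In the same fit the other genes named for this comparison had an edgeR adjusted p of 1.00 each. Ntm, an adhesion molecule, differed by -1.52 in members and 0.18 outside the rule, with an adjusted p under the threshold in 5 of 22 alternatives (lowest 0.00140), and Fras1, a matrix protein, by 1.69 and -0.56. Grm3, a metabotropic glutamate receptor, was at -1.85 and Rab3c, a vesicle GTPase, at -1.04. Ribosomal genes were higher with long-term restriction in 9 of 9 tested, with a median of 0.50 against -0.01 for all genes, with Rpl6, of smallest p, at 0.77 ± 0.341 and Rpl27a at 1.12. Outside the rule 31 of 43 were higher, with a median of 0.21.

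**Figure D5:**
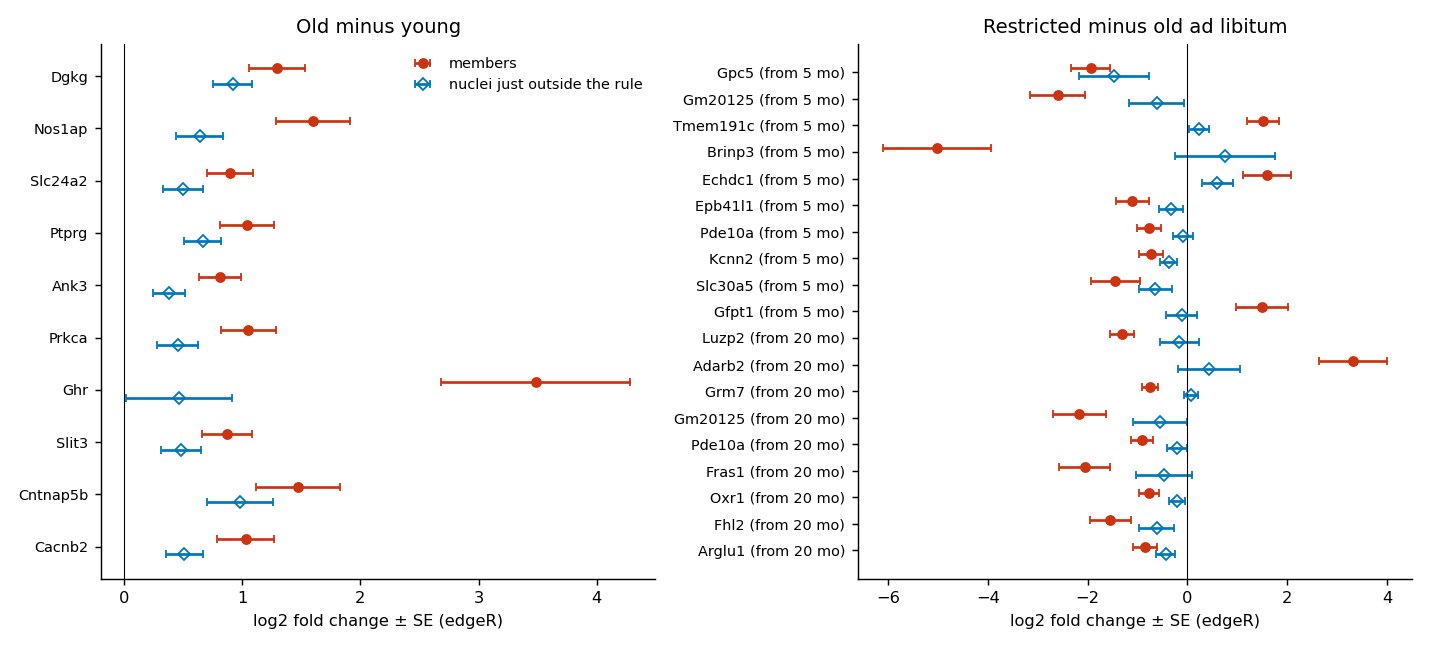
Log2 fold change ± SE (edgeR) of the named genes of smallest p for ageing on the left and for both kinds of restriction on the right, in members (filled circles) and in nuclei just outside the rule (open diamonds). Necab1 is left out because it had 0 UMIs in both old ad libitum mice, and Luzp2 and Grm7 are near 0 outside the rule at -0.16 and 0.07.

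Lists with at least 5 tested genes had medians of -0.42 to 0.18 with long-term and of -0.42 to 0.37 with acute restriction in members. GABA-A receptors were lower in 7 of 9 (median -0.20) and clock genes in 7 of 8 (median -0.16) with long-term restriction, and axon guidance genes in 14 of 20 with each restriction (medians -0.16 and -0.17). All 3 tested oligodendrocyte markers were lower with long-term and higher with acute restriction, and their part in the other values was not tested. With long-term restriction 17 of 24 potassium channels were lower in members (median -0.15), and 21 of 29 outside the rule (median -0.09). CA3 identity genes were higher in 6 of 8 (median 0.18), with 0.21 outside the rule. With acute restriction 8 of 9 ribosomal genes were lower (median -0.42, and -0.26 outside the rule), and 14 of 17 transmitter release genes were lower (median -0.15) with the opposite sign outside the rule (median 0.06). Rims1, an active zone protein, had the smallest p of that list at -0.48.

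Whether ageing differed between members and other neurons was tested in the same mice, with the mouse as a block. Each gene had 1 estimate of spread for both classes, the sums of few members and those of many other nuclei. For Sorcs3 the SE of the difference was 0.363, against 0.52 in members alone, and for Col11a1 0.656 against 0.87. These p-values therefore do not measure the spread of members between mice alone. The difference of ageing in members minus that in CA1-like nuclei was called for 9 of 14955 genes by edgeR (0.0602%), 3 higher and 6 lower. Against granule-like nuclei it was called for 17 of 15002 genes (0.113%), 6 higher and 11 lower. DESeq2 called 0 in both, and leaving out 1 mouse at a time gave 6 to 47 and 15 to 29. With nuclei just outside the rule added, edgeR called 0 against CA1-like (0%) and 14 of 16079 against granule-like nuclei (0.0871%).

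Sorcs3, a sorting receptor on chromosome 19 from 48206025 to 48805505 (plus strand), led the genes higher than in CA1. In members it had 37 and 8 UMIs in young and 376 and 52 in old mice, or 6.95 and 6.07 against 9.38 and 8.98 log2 CPM. In CA1-like nuclei of the same mice it was 9.15 and 9.02 in young and 9.42 and 9.53 in old mice, so the young members were the low point. In granule-like nuclei the ageing difference of Sorcs3 was 1.02 (edgeR adjusted p = 0.000806). The difference between members and CA1-like nuclei was 2.19 ± 0.363 (edgeR, adjusted p = 2.712e-05), and 11 of 14 alternatives were under the threshold, with 1.95e-05 to 1.00 as the range and values of 1.08 to 2.69. Outside the rule the ageing difference of Sorcs3 was 0.55 ± 0.401 with overlapping groups, against 2.42 ± 0.520 in members. Sorcs3 was found in 10 of 19 and 4 of 8 young members and in 17 of 19 and 5 of 6 old members, and 1 old member held 111 of 376 UMIs. These detections are not scaled for the depth of the nuclei.

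Against granule-like nuclei the highest counts were in Lingo2, Hs6st3, Trps1, Etl4 and Cacnb2. Lingo2, an adhesion protein, was 10.83 and 10.62 log2 CPM in young and 9.82 and 8.79 in old members, while granule-like nuclei stood at 12.05 to 12.17 in all 4 mice (difference -1.36, edgeR adjusted p = 6.054e-05, 3.624e-08 to 1.00 over 14 alternatives). Hs6st3, a heparan sulfotransferase, was higher in old than in young granule-like nuclei, at 9.64 and 9.58 against 8.81 and 8.94. Hs6st3 and Trps1 also differ between the sides of the Gabrg3 division, whose pooled share differed between young and old members, though not between the mice numbered 1. The part of that share in these differences was not tested. Other called genes rested on few UMIs in members. Necab1 had 16 UMIs in young mouse 1 and 0 in the other 3 mice, all 16 UMIs of Kcnmb2 in young mouse 1 lay in 1 member, and 23 of 25 UMIs of Hba-a1, a haemoglobin chain, lay in 1 member that lacked Nectin3 and Cpne4.

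Long genes were weighed against short ones within members, as the mean log2 CPM of the longest quartile of gene spans (from 163.9 kb) minus that of the shortest (to 41.7 kb). The index was 1.67 and 1.67 in young and 1.99 and 1.98 in old ad libitum members. The groups did not overlap, but an exact two-sided permutation test of 2 against 2 gave p = 0.333, the smallest it allows. With members and nuclei just outside the rule summed, the index was 1.73, 1.92 and 2.02 in young and 2.16, 2.25 and 2.37 in old mice, where the exact permutation p was 0.1, again the smallest possible.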

How the data were processed

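Nuclei of whole hippocampus from 13 mice were sequenced, 1 library each. The authors deposited whole UMI counts for each barcode, made with Cell Ranger 4.0.0 on mm10, per the submitters' processing notes, over 32285 genes. The counting of introns and the use of strand were not given in the sources used here, so overlapping and antisense genes are uncertain.

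Of 105759 barcodes 105427 were retained, those with 500 or more genes and mitochondrial UMIs of 5% or less (Python 3.11.15, scanpy 1.11.5). The members and the gene lists were chosen with earlier results of these data known. Doublets were ranked with Scrublet in each library, and the top 0.8% per 1000 nuclei were marked and kept. Counts of members were summed per mouse and tested with edgeR 4.0.16 in R 4.3.3 (TMM factors, filterByExpr, robust quasi-likelihood fit over all 4 groups, Benjamini-Hochberg adjustment, threshold 0.05), with DESeq2 1.42.0 as an alternative. The labels number the samples within a group and do not say outright that each is a separate mouse, so p-values measure the spread between these samples. The planned minimum of 20 members per mouse left 3 mice, so 5 were required. For a difference between classes the mouse was a block, and 1 estimate of spread per gene covered both classes. Gene spans came from GENCODE M21. Genes named are the 10 of smallest p whose groups did not overlap, the genes called with a term for libraries numbered 1, and up to 4 genes per list, and some genes that these rules name are not reported here. Shares were compared by exact permutation. The fitting was tested on counts simulated for the ageing comparison in members. Of 100 genes changed by 1 log2 unit 18 were called, and of 100 changed by 2 log2 units 71 were. In that simulation 9 unchanged genes were called as well. A gene that was not called may therefore still have changed. Alternatives changed the tool, the filter, the scaling, the depth, the set of nuclei and the mice.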

Additional observations from a re-analysis of the deposited data

Results flagged for a closer look

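Differences in ageing between members and other neurons, tested with edgeR with the mouse as a block, are set out here because the test of the difference itself passed. The fits held 9 mice of all groups, which together gave the spread. The difference itself is between the 4 ad libitum mice among them. Values are the log2 ageing change in members minus that in the other class. None is explained, and their dependence on few nuclei is given as counts.

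Against CA1-like nuclei 9 genes were called, those given here among them. Sorcs3 (2.19), the transcription factor St18 (2.75) and Mettl24 (2.30) were on the higher side. St18 had 10 and 0 UMIs in young members and 58 and 41 in old members, with 7 of the 10 in members that lacked Nectin3 and Cpne4, and is one of the genes of the Gabrg3 division. Mettl24 had 10 and 3 against 143 and 14 UMIs, of which 13 of 14 in old mouse 2 lay in 1 member. On the lower side was Sema6d (-2.19), a guidance ligand with 57 and 39 UMIs in young and 58 and 5 in old members. Cntn6 (-4.05) had 16 and 0 against 2 and 0 UMIs, Mef2c (-2.98) 16 and 2 against 5 and 0 (11 of the 16 in members of the highest doublet scores), Olfm3 (-4.43) 12 and 2 against 1 and 0 (5 of the 12 in members that lacked Nectin3 and Cpne4), and Necab1 (-11.27, which depends on the prior count) 16 and 0 against 0 and 0.

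Against granule-like nuclei 17 genes were called, and those given here are among the 10 of smallest p on each side. On the higher side were Mettl24 (2.40), Col11a1 (3.14), Ghr (3.69), A830018L16Rik (1.23), Cntnap5b (1.43) and Cacnb2 (0.92). Col11a1 had 5 and 1 UMIs in young and 103 and 20 in old members, with 19 of the 20 in 1 member. Cacnb2 had 260 and 104 against 1353 and 146 UMIs. On the lower side were Lingo2 (-1.36), Camk2d (-2.66), Hs6st3 (-1.19), Trps1 (-1.19), Etl4 (-1.28), Ephb1 (-1.29), Necab1 (-10.92), Kcnmb2 (-3.69), Hba-a1 (-3.75) and Olfm3 (-4.60). Camk2d, a calcium-dependent kinase, had 20 and 10 UMIs in young and 9 and 10 in old members, while in granule-like nuclei it was 5.89 and 5.74 log2 CPM in young and 7.32 and 7.24 in old mice. Ephb1 was 8.29 and 8.24 log2 CPM in young and 7.83 and 8.22 in old members, against 6.08 and 6.20 and then 7.12 and 7.12 in granule-like nuclei. Etl4 was 9.52 and 9.45 in young and 9.93 and 8.62 in old members, against 6.41 and 5.39 and then 7.51 and 6.64 in granule-like nuclei.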

How the results depend on the processing

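The number of genes called was small under every setting and moved with the mice. In the fits on members the young, old ad libitum and long-term restricted groups had 2 mice each, so leaving 1 out left 1. That mouse was then assumed to vary like the other groups. The highest counts below for ageing and for each restriction against old ad libitum mice rest on old ad libitum mouse 2 alone in that group. For ageing edgeR called 0, and 4 with DESeq2, 1 with DESeq2's size factors, 15 without the filter, 15 with the term for libraries numbered 1, 5 with median UMIs as a term, 2 without members of at least 5 Gabrg3 UMIs (which left 1 old ad libitum mouse), and 4, 7 and 3 in the wider set with DESeq2, the number 1 term and no doublets. Leaving out 1 mouse gave 0 to 22, the most without old ad libitum mouse 1. For long-term restriction (0) the counts were 4 without the filter, 3 with the number 1 term, 3 with median UMIs, 1 without members lacking Nectin3 and Cpne4, 3 without the Gabrg3 members and 0 to 8 leaving out 1 mouse, the most without old ad libitum mouse 1. For acute restriction (0) they were 1 with DESeq2, 9 without the filter, 4 with the number 1 term, 5 with median UMIs, 5 without the Gabrg3 members, 1 in the wider set, also with DESeq2 or the number 1 term, and 0 to 13, the most without the same mouse. The wider set gave 0 calls for acute restriction without doublets, and 0 with at least 15 nuclei per mouse. For long-term minus acute restriction (1) they were 8 without the filter, 3 with 2 groups fitted, 2 without members lacking Nectin3 and Cpne4, and 0 after thinning, without doublets, without the Gabrg3 members and in the wider set, with 0 to 5 leaving out 1 mouse. Against CA1-like nuclei (9) they were 0 with DESeq2, 0 thinned, 5 without the filter, 58 without the Gabrg3 members, 0 in the wider set and 6 to 47 (47 without old ad libitum mouse 2), where the 58 and the 47 rest on 1 old ad libitum mouse assumed to vary like the other groups. Against granule-like nuclei (17) they were 0 with DESeq2, 4 thinned, 40 without the Gabrg3 members (again 1 old mouse) and 15 to 29. The cause was not tested.

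The numbers were not used as pairs, since the labels do not say what they share and the submitters' library names number some young and acutely restricted samples above 1 differently. Same-numbered mice deviated together with r of 0.02 to 0.22 over 10 pairs, all above 0 but not all above the 0.1 required, against -0.22 to 0.12 over 20 others, and with 2 mice in most groups this does not show that they are unpaired. In a group of 2 the deviations of the mice are exact opposites, so many of these values mirror each other and are not separate. With the replicate block edgeR called 9 genes for ageing, 0 for long-term, 4 for acute and 1 for long-term minus acute restriction, and 2 for acute restriction in the wider set. Outside the rule the number 1 term gave 19 calls for ageing and 1 for acute restriction, against 0 without it. The exact permutation p of the share with the block was 0.169. Leaving out 1 mouse gave p of 0.0526 to 0.442 for the share, and an old minus young difference in the length index of 0.34 to 0.47, which was 0.32 with all mice, 0.28 thinned, 0.30 over genes of at least 20 UMIs and 0.37 in the wider set.

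Of 2229 values of 113 named results, 2217 kept their direction and 12 reversed. Without young mouse 1 these were Rps2 in ageing (0.384), Cntn6 against CA1-like (5.66), and Kcnmb2 (6.85) and Hba-a1 (6.59) against granule-like nuclei, where leaving out 1 mouse gave at the other end -1.122, -9.979, -11.765 and -10.033. In the wider set they were Brinp3 with long-term restriction (0.020), Necab1 (-0.320) and Slit2 (0.016) with acute restriction, and Fras1 (-0.003) and Rab3c (0.041) between restrictions. Neto1 in ageing was -0.18 with median UMIs, and Grik2 0.072 without the Gabrg3 members and 0.025 without old ad libitum mouse 2 (-0.665 without mouse 1). Fits on at least 20 or 50 members per mouse could not be run, since only 3 mice had 20 members. A comparison of Coch-side with Iyd-side members could not be run either, since only 1 member had at least 2 UMIs of Coch and no Iyd.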
